A study of Homo sapiens with 3 samples.

Results

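The genes described here encode serpins, a family of protease inhibitors and their non-inhibitory relatives, together with the enzymes, receptor and substrate of plasminogen activation. Members were the probe sets whose only gene symbol in the platform annotation began with SERPIN, without antisense and pseudogene symbols, or was PLAU, PLAUR, PLAT or PLG. This gave 34 genes of 19775, read by 57 probe sets of 41091: 30 serpins and 4 other genes. Where several probe sets read a gene, their median was taken. Serpin genes without such a probe set, among them known inhibitors of the plasminogen activators, were not analysed here. The cells were SKBR3, an ERBB2-amplified line established from human breast cancer and known to lack oestrogen receptor α. All 3 cultures were kept for 4 h in charcoal-stripped serum, which is low in steroids. They were then treated for 3 h with 0.1% ethanol (vehicle), with 1 µM estradiol, or with 1 µM ERα17p, a peptide taken from oestrogen receptor α. An ethanol share was recorded here only for the vehicle culture, so a matched solvent cannot be assumed for the estradiol and ERα17p cultures. Each treatment had 1 array, so that no difference below has an error, a replicate check or a p-value.

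Urokinase and tissue-type plasminogen activator cleave the zymogen plasminogen to plasmin, a broad protease that dissolves fibrin and degrades matrix. Urokinase does so at the cell surface, bound to its receptor, and this axis is known for its part in the invasion of breast cancer cells. Inhibitory serpins offer a reactive loop as bait, are cleaved by the protease and trap it in a covalent complex; several of them set the limits of plasminogen activation, while others control elastases, chymotrypsin-like enzymes, coagulation and complement, or carry hormones.

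The deposited values were read as log2 distances from a baseline, subtracted by the authors probe set by probe set; no source states this step, and it was inferred from column medians near 0 and from mirror values. Differences between arrays can be read from them, but levels cannot, so it is unknown which members are expressed in these cells. Pairs of arrays with exact mirror values around 0 occurred in 6 of the 57 member probe sets (10.5%) and in 3979 of all 54675 (7.28%), to a tolerance of 1e-06. The spread was widest on the array labelled vehicle: its standard deviation over all genes was 0.27 log2 units, against 0.10 on the estradiol and 0.11 on the ERα17p array. In these terms the members spread over 0.60, 0.13 and 0.14 log2 units. The 0.60 includes SERPINA3 at 2.53 and PLAU at 2.23, far above the next highest member on that array, PLAUR at 0.78. It is therefore no measure of the members as a whole. For markers of the line (ERBB2, GRB7, KRT8, KRT18, KRT19 and EPCAM) differences ran from -0.13 to 0.28 over the 3 comparisons, and for 6 markers of leukocytes, endothelium and stroma from -0.22 to 0.20. A gene is called lower or higher where a pair of arrays differed by 1.5-fold or more (0.585 log2 units).

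**Figure D1:**
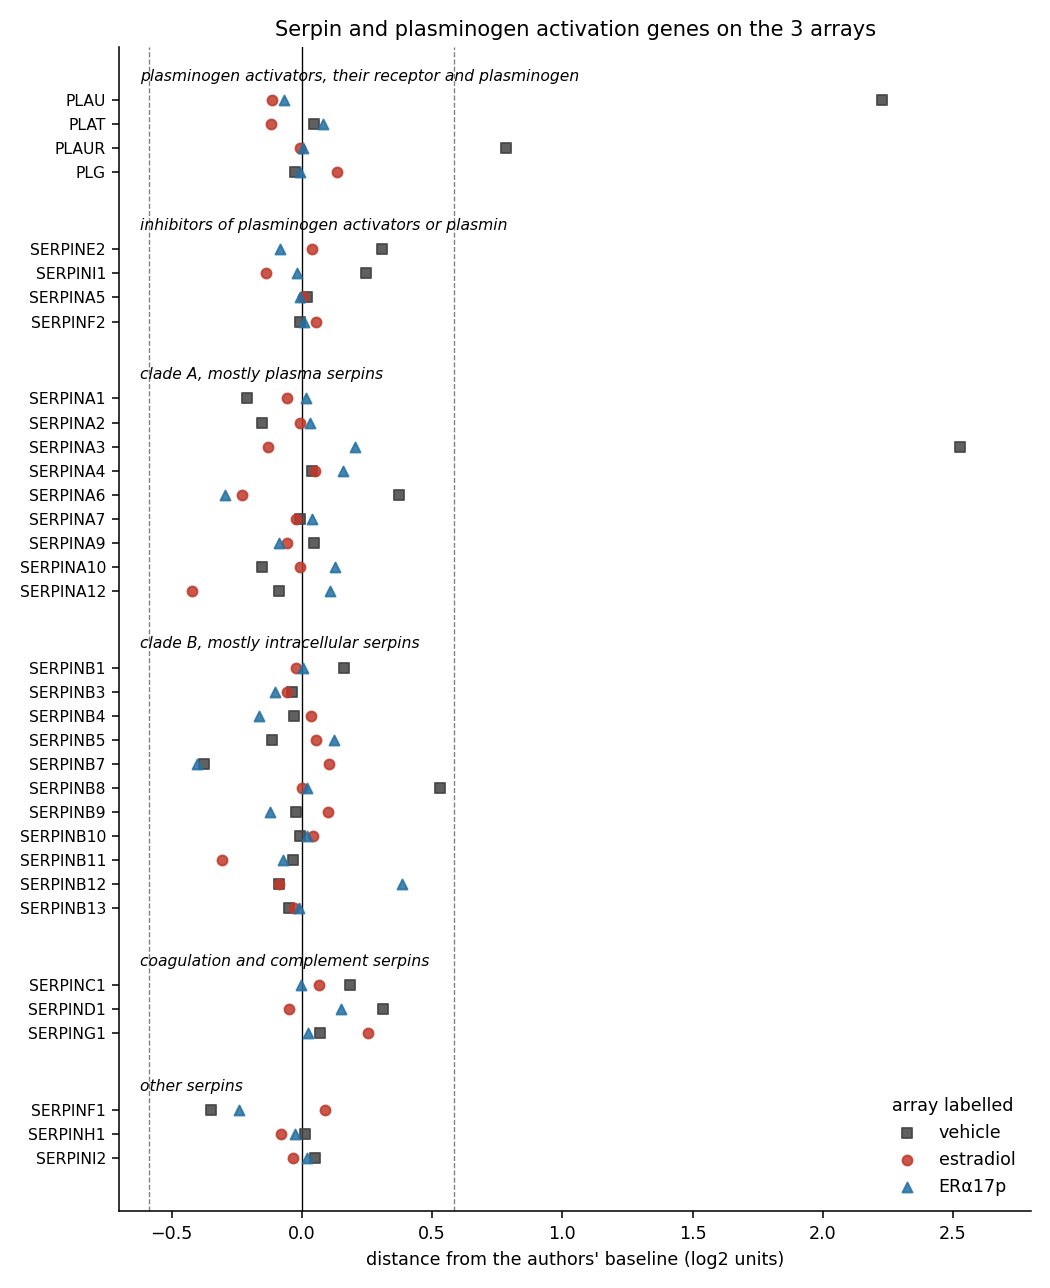
Value of each of the 34 member genes on the arrays labelled vehicle (squares), estradiol (circles) and ERα17p (triangles), as log2 distance from the authors' baseline (solid line), grouped by role; dashed lines mark 1.5-fold. SERPINA3, PLAU and PLAUR lie beyond the right dashed line on the array labelled vehicle, at 2.53, 2.23 and 0.78, and every point of both treated arrays lies between the dashed lines.

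On both treated arrays the genes of urokinase and its receptor were lower than on the array labelled vehicle, as were those of the acute-phase serpin α1-antichymotrypsin and of the corticosteroid carrier. With estradiol, 4 of 34 members were lower (11.8%), where 2.93% of all genes were, and 0 were higher, where 0.809% of all genes were. With ERα17p, 4 of 34 were lower, against 2.14% of all genes, and 0 higher, against 0.582%. They were PLAU, PLAUR, SERPINA3 and SERPINA6 in each case. Both comparisons share the array labelled vehicle and are therefore not separate evidence, and the part of that array's wide spread in these calls was not tested. At 2-fold, 2 members passed in each, PLAU and SERPINA3, where 0.895% of all genes were lower with estradiol and 0.738% with ERα17p. The other 30 members lay between -0.53 and 0.48 with estradiol and between -0.51 and 0.47 with ERα17p. The median over all 34 was -0.017 with estradiol and -0.035 with ERα17p, beside 0.029 and 0.033 over all genes.

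PLAU encodes urokinase, the activator that works at the cell surface. Its value was 2.23 on the array labelled vehicle, -0.11 with estradiol and -0.067 with ERα17p. Relative to the baseline the array labelled vehicle stood above both treated arrays, which lay close to each other. The differences from the array labelled vehicle were -2.34 log2 units with estradiol (5.07-fold lower) and -2.30 with ERα17p (4.91-fold lower), the 24th and 21st lowest of all 19775 genes. Its 2 probe sets moved alike, by -2.46 and -2.23 with estradiol and by -2.54 and -2.05 with ERα17p. The IDs of both end in _s_at, which marks probe sets that may read more than 1 transcript.

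PLAUR encodes the urokinase receptor, which a lipid anchor holds on the cell surface. It stood at 0.78 on the array labelled vehicle, at -0.0075 with estradiol and at 0.0032 with ERα17p. The pattern was that of PLAU at a smaller size, with the differences at -0.79 (1.73-fold lower) and -0.78 (1.72-fold lower). Its probe sets were unequal. With estradiol, 210845_s_at and 211924_s_at gave -0.83 and -0.78, while 214866_at gave -0.18. With ERα17p they gave -0.74, -0.79 and -0.16 in the same order. Averaging the 3 probe sets in place of taking their median left the difference at -0.59 with estradiol and brought it to -0.56 with ERα17p, short of 1.5-fold.

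PLAT, the gene of tissue-type plasminogen activator, the main activator in blood, had values of 0.046 on the array labelled vehicle, -0.12 with estradiol and 0.081 with ERα17p. It thus differed from the array labelled vehicle by -0.16 and 0.035, and no comparison brought it near 1.5-fold. PLG, the plasminogen gene, is known as a liver gene. It lay at -0.026 on the array labelled vehicle, at 0.14 with estradiol and at -0.0084 with ERα17p, at most 0.16 apart. Of the 3 probe sets of PLG, 240033_at was the widest, 0.45 above the array labelled vehicle with estradiol and 0.018 above it with ERα17p.

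SERPINA3 showed the widest difference of any member. It encodes α1-antichymotrypsin, an acute-phase inhibitor of cathepsin G and other chymotrypsin-like proteases. Its 1 probe set stood at 2.53 on the array labelled vehicle, at -0.13 with estradiol and at 0.20 with ERα17p. The array labelled vehicle again stood above both others. The differences were -2.65 log2 units with estradiol (6.30-fold lower) and -2.32 with ERα17p (4.99-fold lower), the 15th and 19th lowest of all genes.

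SERPINA6 encodes corticosteroid-binding globulin, a hormone carrier that inhibits no protease. It had 0.37 on the array labelled vehicle, -0.23 with estradiol and -0.30 with ERα17p. Both treated arrays lay below the baseline and the array labelled vehicle above it, so that differences of -0.60 (1.52-fold lower) and -0.67 (1.59-fold lower) built up from both sides. It rests on 1 probe set and passed the size rule narrowly, at the 539th and 318th lowest place.

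**Figure D2:**
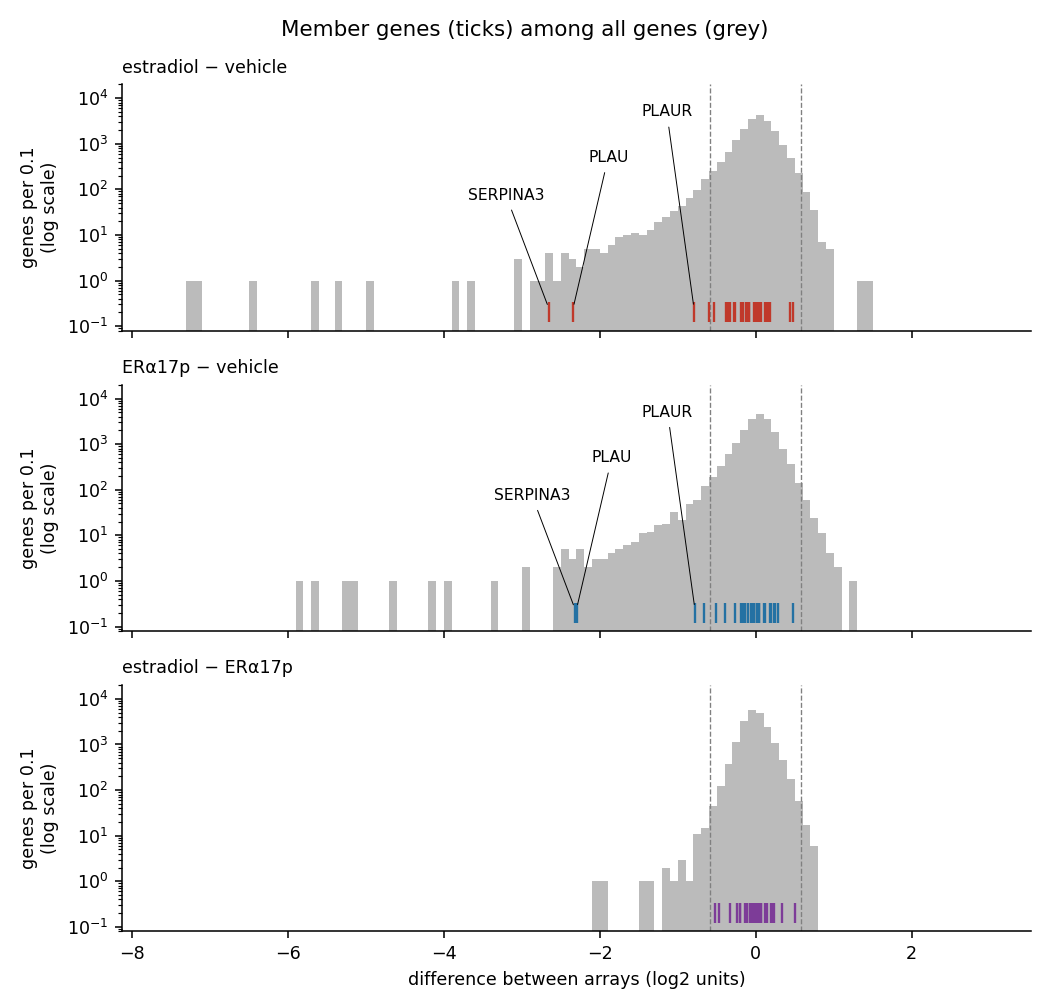
Differences between pairs of arrays in log2 units (horizontal axis) for all 19775 genes (grey histogram, number of genes per 0.1 log2 units on a log axis) and for the 34 members (ticks, placed at an arbitrary height); dashed lines mark 1.5-fold. SERPINA3, PLAU and PLAUR sit in the lower tail of both comparisons with the array labelled vehicle, and all 34 ticks lie between the dashed lines for estradiol minus ERα17p.

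The stretches before the start sites of the 4 called genes are shown because these were the members called in any comparison. They are RefSeq sequences of build GRCh38.p14, 250 bases up to the base before the start, written 5′ to 3′ on the gene's strand. PLAU lies at chr10:73910882-73911131 on the plus strand (the later of its 2 start sites), PLAUR at chr19:43670170-43670419 on the minus strand, SERPINA3 at chr14:94612141-94612390 on the plus strand and SERPINA6 at chr14:94323337-94323586 on the minus strand. Capitals mark matches, on either strand, to the AP-1 motif TGANTCA, the SMAD box CAGAC, the TATAAA box or the κB consensus.
PLAU: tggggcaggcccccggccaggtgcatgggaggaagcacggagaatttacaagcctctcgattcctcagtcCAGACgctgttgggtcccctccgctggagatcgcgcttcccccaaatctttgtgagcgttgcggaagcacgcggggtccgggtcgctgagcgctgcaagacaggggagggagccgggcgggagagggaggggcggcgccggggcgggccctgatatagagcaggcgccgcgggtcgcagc
PLAUR: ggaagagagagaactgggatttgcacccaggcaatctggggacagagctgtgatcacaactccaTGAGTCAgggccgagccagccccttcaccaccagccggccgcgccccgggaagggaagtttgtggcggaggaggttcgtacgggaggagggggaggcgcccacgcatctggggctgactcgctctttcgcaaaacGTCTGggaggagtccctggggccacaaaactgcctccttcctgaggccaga
SERPINA3: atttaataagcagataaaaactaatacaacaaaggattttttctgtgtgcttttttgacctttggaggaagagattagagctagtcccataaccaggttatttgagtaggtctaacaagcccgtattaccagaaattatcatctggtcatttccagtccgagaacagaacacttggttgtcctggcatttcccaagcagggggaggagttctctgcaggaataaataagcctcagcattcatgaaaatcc
SERPINA6: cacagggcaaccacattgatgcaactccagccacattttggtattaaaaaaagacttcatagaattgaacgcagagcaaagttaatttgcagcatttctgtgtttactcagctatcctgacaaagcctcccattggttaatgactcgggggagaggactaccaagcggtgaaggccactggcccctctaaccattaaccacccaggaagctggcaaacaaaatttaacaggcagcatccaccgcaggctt

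Motifs were searched on both strands of the full windows of 300 bases, from 250 bases before the start to 50 bases after it. The κB consensus, the site of NF-kB proteins, matched in 0 of the 4 called genes, in 5 of the 38 promoters that the table holds for 26 member genes (those of SERPINA4, SERPINA12, SERPINB7 and SERPINH1) and in 11.3% of all 35116 promoters. The AP-1 motif matched in PLAUR, from 186 to 180 bases before the start, in 8 of the 38 member promoters and in 7.71% of all promoters. The SMAD box matched in PLAU, PLAUR and SERPINA3, in 20 of the 38 and in 45.3% of all promoters. The matches of SERPINA3 begin 8 and 12 bases into the transcript and overlap each other, outside the printed stretch. The TATAAA box matched in 0 of the 4, in 9 of the 38 and in 11.5% of all promoters. Promoters of 1 gene can overlap. A match is only an occurrence of these letters, and no match says only that they are not in this window.

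In clade A, the branch of mostly secreted plasma serpins, 9 genes remained beside the inhibitor SERPINA5. SERPINA3 and SERPINA6 were lower in both comparisons with the array labelled vehicle, and 0 of the 9 were higher. Of all genes, 2.93% were lower and 0.809% higher with estradiol, and 2.14% and 0.582% with ERα17p. SERPINA1 encodes α1-antitrypsin, the main plasma inhibitor of neutrophil elastase. It had values of -0.21, -0.056 and 0.016 on the vehicle, estradiol and ERα17p arrays, hence differences of 0.16 and 0.23, and its 4 probe sets disagreed in sign in both. SERPINA10, which encodes the protein Z-dependent inhibitor of factor Xa, had 0.15 and 0.28. SERPINA12 encodes vaspin, an adipokine. It had -0.086 on the array labelled vehicle, -0.42 with estradiol and 0.11 with ERα17p, which places the treated arrays on either side, at differences of -0.34 and 0.19. SERPINA2, which RefSeq lists as a transcribed pseudogene, had 0.14 and 0.18. SERPINA4 (kallistatin), SERPINA7 (thyroxine-binding globulin) and SERPINA9, a serpin of germinal centre B cells, differed by 0.0083, -0.015 and -0.10 with estradiol and by 0.12, 0.045 and -0.13 with ERα17p.

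Most clade A genes lie side by side on chromosome 14. Of the 9 measured there, 2 were lower in both comparisons with the array labelled vehicle, SERPINA3 and SERPINA6. Whether the uncalled genes between and beside them are expressed in these cells is unknown. Their small differences therefore cannot show how far along the cluster a change reached. In chromosomal order the measured genes are SERPINA10, SERPINA6, SERPINA2, SERPINA1, SERPINA9, SERPINA12, SERPINA4, SERPINA5 and SERPINA3. SERPINA5, the measured neighbour of SERPINA3, had -0.014 with estradiol and -0.027 with ERα17p. SERPINA10 and SERPINA2, the measured neighbours of SERPINA6, lay above 0 in both comparisons. On chromosome 18, where 9 measured clade B genes lie together, SERPINB8 at the far end stood lowest in both comparisons with the array labelled vehicle. There 0 of 9 were called, which for so few genes is near the shares of all genes (2.93% and 2.14% lower). SERPINB1 and SERPINB9 lie on chromosome 6, and neither was called, again near those shares for so few genes.

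**Figure D3:**
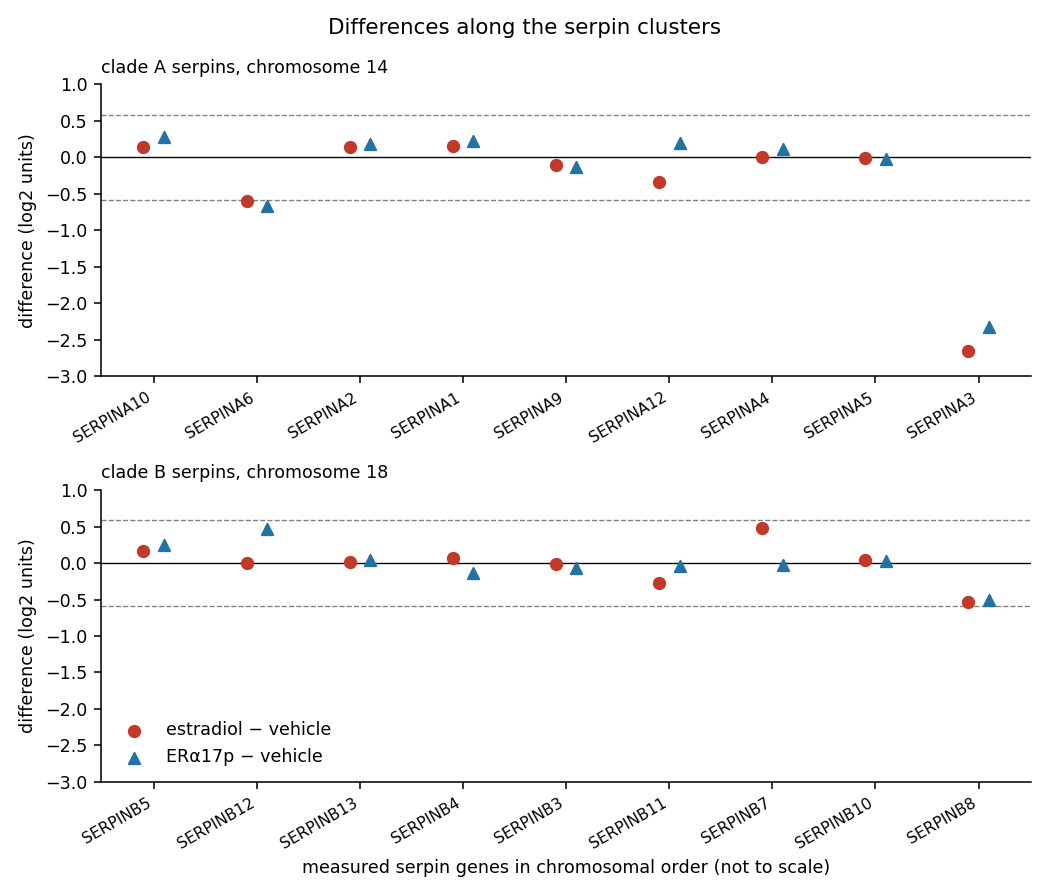
Difference from the array labelled vehicle in log2 units for estradiol (circles) and ERα17p (triangles), for the measured serpin genes in their order along chromosome 14 (upper panel) and chromosome 18 (lower panel), spacing not to scale; dashed lines mark 1.5-fold. SERPINA3 and SERPINA6 lie below the lower dashed line while SERPINA5, next to SERPINA3, lies near 0, and SERPINA10 and SERPINA2, next to SERPINA6, lie above 0, between 0.14 and 0.28.

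Clade B holds serpins that mostly stay inside the cell. Of its 11 measured genes, 0 were lower and 0 higher in any of the 3 comparisons by the gene value. For so few genes this is near the shares of all genes. These were 2.93% lower and 0.809% higher with estradiol, and 2.14% and 0.582% with ERα17p. For estradiol minus ERα17p they were 0.207% and 0.147%. SERPINB8, an inhibitor of furin-like proteases, came closest. Its value was 0.53 on the array labelled vehicle, -0.00050 with estradiol and 0.021 with ERα17p, and the differences were -0.53 and -0.51. This value averages probe sets that disagreed: 206034_at stood at 1.12 on the array labelled vehicle, -0.061 with estradiol and 0.094 with ERα17p, whereas 1554616_at stood at -0.062, 0.060 and -0.052. The former was 2.27-fold lower with estradiol and 2.04-fold lower with ERα17p, while the latter differed by 0.12 and 0.010 log2 units.

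Other clade B genes went different ways. SERPINB7 (megsin), a serpin of skin and kidney, had -0.38 on the array labelled vehicle, 0.10 with estradiol and -0.40 with ERα17p, so that the estradiol array lay above the array labelled vehicle by 0.48. SERPINB12 had -0.087, -0.087 and 0.39, where the ERα17p array lay above the array labelled vehicle by 0.47. Each rests on 1 probe set and stayed short of 1.5-fold. SERPINB9 encodes the inhibitor of granzyme B and SERPINB1 the leukocyte elastase inhibitor. SERPINB9 differed by 0.12 with estradiol and -0.10 with ERα17p, and its 3 probe sets ran from -0.081 to 0.57 with estradiol. SERPINB1 had -0.18 and -0.16, with 3 of its 4 probe sets below 0 and 239213_at at 0.49 and 0.40. SERPINB5, the gene of maspin, known as a breast epithelial serpin that is often lost in carcinoma, had 0.17 and 0.24. The squamous cell carcinoma antigens SERPINB3 and SERPINB4 are near-identical copies whose probe sets may share transcripts. Their gene values differed by -0.020 and 0.065 with estradiol and by -0.065 and -0.13 with ERα17p. Within SERPINB3 the 2 probe sets opposed each other, at 0.43 and -0.47 with estradiol. SERPINB10, SERPINB11 and SERPINB13 had 0.047, -0.27 and 0.020 with estradiol and 0.024, -0.040 and 0.038 with ERα17p.

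**Figure D4:**
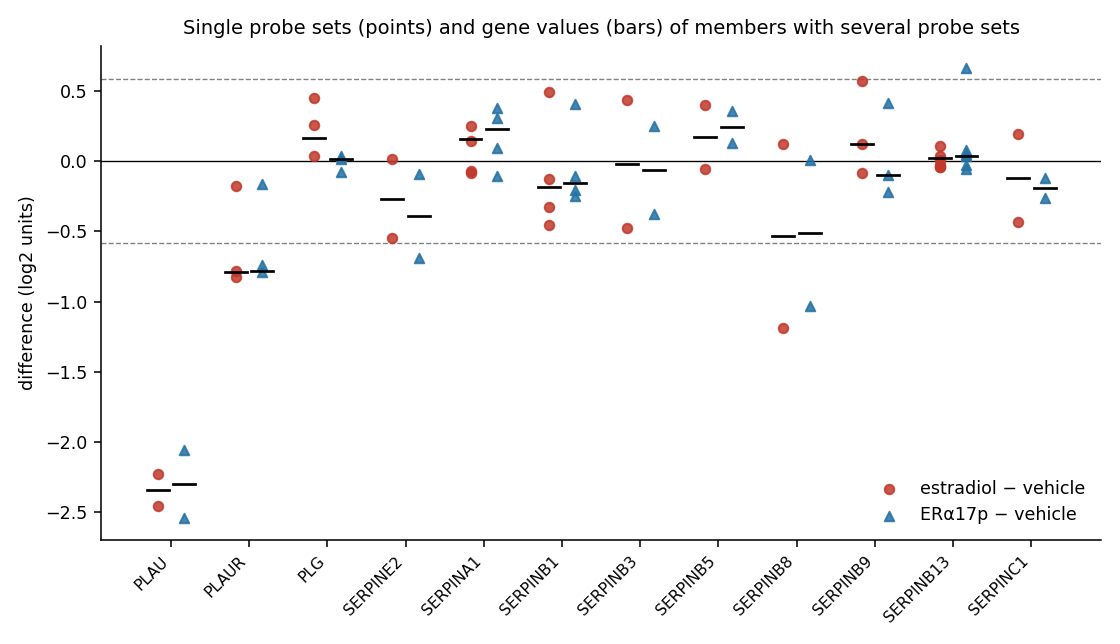
Difference from the array labelled vehicle in log2 units for each probe set (circles, estradiol; triangles, ERα17p) of the 12 members read by several probe sets, with the gene value as a black bar; dashed lines mark 1.5-fold. The probe sets of PLAU lie together far below 0, whereas SERPINB8 pairs a value of -1.19 with 1 of 0.12 for estradiol.

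Probe sets offered the only repeated reading of a gene, and they share the RNA of 1 culture. Of the 12 members with several probe sets, the probe sets had the same sign in 3 with estradiol (PLAU, PLAUR and PLG) and in 5 with ERα17p (PLAU, PLAUR, SERPINB5, SERPINC1 and SERPINE2). Counted singly, 7 of the 57 member probe sets were lower with estradiol, where 3.71% of the 41091 probe sets were, and 8 with ERα17p, where 2.76% were. The 7 belong to PLAU, PLAUR, SERPINA3, SERPINA6 and SERPINB8, and SERPINE2 added the other with ERα17p. Higher were 0 of 57 with estradiol, where 1.38% of the 41091 were, and 1 with ERα17p, where 0.886% were. It was 211362_s_at of SERPINB13, at 0.66. For estradiol minus ERα17p this probe set was the 1 of 57 that was lower (1.75%), where 0.29% of the 41091 were. In that comparison 0 were higher, where 0.314% of the 41091 were.

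Of the serpins that act on plasminogen activators or on plasmin, 4 were measured and 0 were called in any comparison, which for so few genes is near the shares of all genes (2.93% lower with estradiol and 2.14% with ERα17p). SERPINE2 encodes protease nexin 1, which inhibits thrombin, urokinase and plasmin. It had 0.31 on the array labelled vehicle, 0.040 with estradiol and -0.083 with ERα17p, for differences of -0.27 and -0.39. Of its 2 probe sets 212190_at gave -0.55 and -0.69, past 1.5-fold with ERα17p, and 227487_s_at gave 0.016 and -0.089. SERPINI1, the gene of neuroserpin, an inhibitor of tissue-type plasminogen activator, had 0.25, -0.14 and -0.019, for differences of -0.39 and -0.27. Both genes thus lay highest on the array labelled vehicle, as PLAU did, but within 1.5-fold. SERPINF2 encodes α2-antiplasmin, the main plasmin inhibitor of blood, and SERPINA5 the protein C inhibitor. They differed by 0.059 and -0.014 with estradiol and by 0.013 and -0.027 with ERα17p.

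Serpins of coagulation and complement, 3 genes, were not called in any comparison either. For so few genes this is again near the shares of all genes. These were 2.93% lower and 0.809% higher with estradiol, and 2.14% and 0.582% with ERα17p. For estradiol minus ERα17p they were 0.207% and 0.147%. SERPIND1 (heparin cofactor II) had 0.31 on the array labelled vehicle, -0.050 with estradiol and 0.15 with ERα17p, for differences of -0.36 and -0.16. SERPINC1 (antithrombin) differed by -0.12 and -0.19, and SERPING1 (C1 inhibitor) by 0.19 and -0.043. Among the 3 remaining serpins, SERPINF1, which encodes the anti-angiogenic pigment epithelium-derived factor, had -0.35 on the array labelled vehicle, 0.088 with estradiol and -0.24 with ERα17p. It differed by 0.44 with estradiol and by 0.11 with ERα17p, neither past 1.5-fold. The collagen chaperone gene SERPINH1 differed by -0.090 and -0.039, and the pancreatic serpin gene SERPINI2 by -0.088 and -0.032.

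Estradiol and ERα17p were also set directly against each other, without the array labelled vehicle, and no member was called. Lower with estradiol were 0 of 34 members, where 0.207% of all genes were lower, and higher were 0, where 0.147% of all genes were. The median was -0.024, beside -0.012 over all genes, and 29 of the 34 lay within 0.25 log2 units (85.3%, beside 89.2% of all genes). PLAU differed by -0.046, PLAUR by -0.011, SERPINA6 by 0.065 and SERPINA3 by -0.33. The widest were SERPINA12 at -0.53, SERPINB7 at 0.51 and SERPINB12 at -0.47, each from 1 probe set. SERPINF1 had 0.33. PLAT had -0.20 and PLG 0.15. Without replicates, a difference of this size cannot be told from the spread between cultures.

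Measured against the authors' baseline, 3 of the 4 called genes were far off it on the array labelled vehicle alone. There, 3 of 34 members lay at least 1.5-fold above the baseline, where 2.35% of all genes did, namely SERPINA3, PLAU and PLAUR, and 0 lay below it. Neither treated array had a member off the baseline in either direction, where 0.0556% of all genes were with estradiol and 0.0708% with ERα17p. The treated arrays spanned -0.42 to 0.25 and -0.40 to 0.39 over the members. Whether the array labelled vehicle was high or the treated arrays were low in these genes cannot be told apart from values of this kind, since what the baseline was made from is not stated.

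Other genes of the system were called in 1 case. Of 92 genes listed as receptors and cofactors, coagulation factors, proteases or other protease inhibitors, 89 were measured. With estradiol 0 were lower and 0 higher, beside 2.93% and 0.809% of all genes, and with ERα17p 1 was lower and 0 higher, beside 2.14% and 0.582%. Between estradiol and ERα17p 0 were called, beside 0.207% and 0.147%. The medians over the 89 were 0.012, 0.042 and -0.021 in the same order. Among 15 receptors and cofactors of plasminogen activation the median was 0.061 with estradiol and 0.11 with ERα17p. The plasminogen receptor genes PLGRKT, ANXA2 and S100A10 lay between -0.042 and 0.080 in both, and ENO1 of the same list had 0.039 and 0.14. SORL1, which encodes a receptor that takes up urokinase complexes, was the widest at 0.27 and 0.34. Among 28 coagulation and fibrin factors the medians were -0.0076 and 0.047. F3, the gene of tissue factor, which starts coagulation, had 0.16 on the array labelled vehicle, -0.39 with estradiol and 0.15 with ERα17p. It thus stood low on the estradiol array alone, by -0.55 and -0.54 against the others, both short of 1.5-fold. The thrombin gene F2 had 0.51 and 0.082.

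Of 28 proteases that serpins or plasmin act on or with, CTSK, the gene of the collagen-degrading cathepsin K, was the called gene. It had 0.25 on the array labelled vehicle, 0.11 with estradiol and -0.41 with ERα17p, so that the ERα17p array was the low one, at -0.66 against the array labelled vehicle. The medians of this list were 0.0077 with estradiol and 0.0045 with ERα17p. In 18 other protease inhibitors the medians were -0.035 and -0.018. The elafin gene PI3 was the widest of these with ERα17p, at -0.50, and the cystatin gene CST1 with estradiol, at 0.46. SLPI, which encodes the secretory leukocyte protease inhibitor, had -0.011 and -0.014.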

How the data were processed

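RNA of 3 SKBR3 cultures was hybridised to 1 Affymetrix array each. The deposited log2 values were computed with RMA, per the submitters' processing notes; for its version, the sources used here give nothing. No source states a centring step. Column medians near 0 and mirror values in pairs of arrays were taken to mean that each probe set was centred on a median to which further arrays contributed. No source names the base of the logarithm, which was taken as 2 as RMA yields it. Of 54675 probe sets, 41091 had 1 gene symbol in the platform annotation, 1801 had several, 11721 were unnamed here and 62 were controls. Entrez IDs matched the RefSeq table of GRCh38.p14 for 41037, and 0 symbols changed. Gene values were medians over probe sets, and differences between gene values were computed with pandas 2.3.3 in Python 3.11.15. No filter on low values was possible, and the number of arrays limits the precision. The arithmetic was tested on simulated data. Promoters came from the RefSeq table, which held 26 of the 34 genes. A planned comparison of protein sequences was not made.

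With 1 array per group no test was run; the size rule was 1.5-fold. Members, roles and the 4 other gene lists were chosen with earlier results of these data known. Named with values were the plasminogen genes, every called member, the widest of each role, and of each list the called genes; further members and list genes were named after their values were seen. Alternatives were the mean over probe sets, leaving out probe sets whose ID ends in _s_at or _x_at, which may read more than 1 transcript, centring each array on its median, a 2-fold rule, the baseline as reference and, chosen after seeing the data, the median of probe set differences.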

Additional observations from a re-analysis of the deposited data

How the results depend on the processing

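The calls rest on 1 array per group and changed with the reference, the size rule and the choice of probe sets. With the authors' baseline in place of the array labelled vehicle, 0 members were lower in place of 4 in both comparisons. Of all 19775 genes, only 10 lay 1.5-fold below the baseline with estradiol and 1 with ERα17p. A count of 0 would thus be usual for any 34 genes and says nothing particular about the members. PLAUR and SERPINA3 with ERα17p came to 0.0032 and 0.20, on the other side of 0. The member medians were -0.014 with estradiol and 0.0045 with ERα17p. At 2-fold, 2 members were lower in each, where 0.895% of all genes were with estradiol and 0.738% with ERα17p. Without probe sets ending in _s_at or _x_at, 27 members were left and PLAU had no probe set. Then 2 were lower with estradiol (SERPINA3 and SERPINA6) and 3 with ERα17p (also SERPINE2, at -0.69), PLAUR had -0.18 and -0.16, and the medians were -0.014 and -0.027. With the mean over probe sets, 4 and 3 were lower, and the medians were -0.030 with ERα17p and -0.042 for estradiol minus ERα17p. Centring each array moved the medians to -0.036 with estradiol and -0.058 with ERα17p and changed no call. The median of probe set differences, chosen after seeing the data, changed no call and gave -0.030 for estradiol minus ERα17p. No alternative made a member higher, or called a member between estradiol and ERα17p. Apart from the baseline and the 2-fold rule, the share of all genes was not counted under the alternatives. Whether the members moved differently from all genes there is therefore unknown. The causes were not tested. Signal over background is unknown for every member.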

Other observations

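Some probe sets of the family stayed outside the gene values, and they were looked at after the values were seen. The probe set 205871_at, annotated to the plasminogen-like genes PLGLB1 and PLGLB2, stood at 0.79 on the array labelled vehicle, at -0.067 with estradiol and at -0.24 with ERα17p. It differed from the array labelled vehicle by -0.86 and -1.03 log2 units. The probe sets 214415_at and 230120_s_at of the same pair of genes differed by -0.27 and 0.043 with estradiol and by -0.25 and -0.14 with ERα17p. The probe set 1558603_at, annotated to PLGLB2 alone, differed by 0.059 and 0.23. The probe set 209978_s_at, shared by PLG and LPA, had -0.066 and 0.38. The probe set 210413_x_at, shared by SERPINB3 and SERPINB4, had 0.26 and -0.072. The pseudogene SERPINB9P1, a neighbour of SERPINB9 on chromosome 6, had 0.39 and 0.34.

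Within SERPINB13, 5 of 6 probe sets lay between -0.079 and 0.076 for estradiol minus ERα17p, while 211362_s_at had -0.70. It stood at -0.41 with estradiol, 0.29 with ERα17p and -0.37 on the array labelled vehicle.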
